A study of Mus musculus with 2 samples.

Results

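The genes described here make, break down and act on cyclic AMP: the adenylyl cyclases, the cyclic nucleotide phosphodiesterases, the subunits of cyclic AMP-dependent protein kinase (protein kinase A) and the A-kinase anchoring proteins. They were chosen by symbol, from the Adcy, Pde, Prkar, Prkac and Akap names, and number 53 of the 32285 genes in the files. There are 10 cyclases, 24 phosphodiesterases, 4 regulatory and 2 catalytic subunits, and 13 anchors. They were measured by single-nucleus RNA sequencing (10x Genomics droplets, 3-prime ends) in the perivascular fat of mesenteric arteries, taken at an age of 11 weeks. One library came from mice carrying floxed Prdm16 alleles alone (genotype Prdm16flox, the flox control). The other came from mice with floxed Prdm16 that also carried Cre recombinase under the adiponectin promoter, which is active in fat cells (labelled Prdm16 cKO). Both libraries share the floxed alleles, and the number of animals behind either is not in the labels. Each genotype is 1 library, so no test between genotypes is possible, every difference below compares these 2 libraries, and every interval is a 95% interval that covers counting error only.

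Cyclic AMP is the signal by which noradrenaline, thyrotropin and other hormones start fat breakdown in adipocytes. Receptors coupled to the stimulatory G protein switch on membrane adenylyl cyclases, cyclic AMP releases the catalytic subunits of protein kinase A from their regulatory subunits, and the free kinase phosphorylates hormone-sensitive lipase and perilipin. Phosphodiesterases end the signal, and in adipocytes insulin does so through Pde3b. Anchoring proteins hold the kinase at mitochondria, membranes or the nucleus, and in vascular smooth muscle the same second messenger relaxes the vessel.

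The control library gave 10533 kept nuclei (median 7036 unique molecular identifiers, UMIs, per nucleus) and the library labelled Prdm16 cKO 7374 (median 6522). Prdm16 itself gave 16.4 CPM (counts per 1e6 UMIs of the class) in adipocyte-like nuclei of the control and 22.5 CPM in the library labelled cKO, a log2 ratio of 0.45 (0.32 to 0.59), which goes against the label. The labels do not say which exons are floxed, and reads at the 3-prime end of a gene may lie outside the deleted part, so this count does not check the deletion. Clusters of nuclei were made without the 53 genes and named by markers, and all 9 adipocyte markers were detected in the adipocyte-like class of both libraries. That class held 4310 control nuclei (40.9%) and 2867 nuclei of the library labelled cKO (38.9%). An unnamed cluster of low depth, led by Lrp1b and Grik1, held 4.97% of control nuclei (524) and 13.7% of the others (1010). By markers it was nearest to adipocytes, through Plin1, Plin4, Lipe and Adrb3. Its summed adipocyte markers stood at 77.9 and 83.3% of the adipocyte-like level. It was left unnamed for its depth, by a threshold set after seeing the data. Adipocyte markers were also counted in nuclei of other classes, and whether they came from free RNA was not tested. In the 8 other classes compared between libraries, the summed adipocyte markers ranged from 18.6 to 35.2% of the adipocyte-like level in the control. In the library labelled cKO they ranged from 22.6 to 49.5%. Among smaller classes they stood at 19.0 and 41.2% in smooth muscle-like and 27.9 and 54.0% in pericyte-like nuclei. Pancreatic acinar-like nuclei had 44.2 and 44.8%, and granulocyte-like nuclei 49.9 and 58.2%. Levels in CPM are not corrected for gene length, so they are compared between cell types and libraries and not between genes.

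Of the 53 genes, 47 had enough UMIs to be placed by cell class, and 5 were at least 2 times higher in 1 class than in any other in both libraries: Adcy4, Adcy5, Akap6, Pde8b and Prkar2b. By the same rule 9.03% of all genes placed led a class, so the share among the cyclic AMP genes was near that of genes at large. Another 21 of the 47 had the same highest class in both libraries without that margin. With every nucleus thinned to 1000 UMIs, Pde8b and Prkar2b no longer led a class. Akap4 had no UMI in any kept nucleus.

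Among the cyclases, which make cyclic AMP from ATP, Adcy5 (chr16:35154877-35305738, plus strand, mm10) was highest in smooth muscle-like nuclei, at 925 CPM (843 to 1014) in the control and 699 CPM (577 to 840) in the library labelled cKO. That was 8.10 and 5.82 times the adipocyte-like level of 114 and 120 CPM, the second highest. The class is small, with 65 and 34 nuclei. Adcy4 (chr14:55769057-55784095, minus strand), a cyclase stimulated by G protein beta-gamma subunits, was highest in vascular endothelial-like nuclei, at 55.8 CPM and 36.3 CPM, which was 2.15 and 2.36 times the second class. Its adipocyte-like level was 0.577 and 0.947 CPM. Adcy7 stood out in immune classes: 221 and 181 CPM in dendritic-like, 188 and 155 CPM in T cell-like, and 150 and 164 CPM in macrophage-like nuclei, against 5.40 and 5.76 CPM in adipocyte-like nuclei. Adcy9 was highest in smooth muscle-like nuclei of the control (438 CPM) and in macrophage-like nuclei of the library labelled cKO (384 CPM). Adcy6, a calcium-inhibited cyclase, and Adcy3, a calcium-stimulated one, both reached 133 CPM in pericyte-like nuclei of the control and 129 and 61.2 CPM in those of the library labelled cKO. Adcy2 was highest in the small Schwann-like class, from 3 and 4 UMIs. Within fibroblast-like nuclei it was concentrated in cluster 9, at 58.7 and 63.9 CPM, against 10.7 to 15.4 CPM in the other 2 fibroblast-like clusters. Cluster 9 holds the interstitial progenitor markers Pi16 and Dpp4, of which Pi16 also passed as a marker in fibroblast-like cluster 4. Adcy10, the soluble cyclase that responds to bicarbonate and calcium and not to G proteins, was highest in adipocyte-like nuclei, at 35.5 CPM (34.0 to 37.1) and 68.9 CPM (66.2 to 71.5).

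Among the phosphodiesterases, which break cyclic nucleotides down, Pde3b, the insulin-activated enzyme of fat cells (chr7:114415281-114539251, plus strand), was highest in adipocyte-like nuclei at 2529 and 2108 CPM. Its close relative Pde3a was highest in smooth muscle-like nuclei, at 2143 and 1508 CPM, followed by pericyte-like nuclei at 1300 and 969 CPM, with 18.5 and 14.1 CPM in adipocyte-like nuclei. In vascular endothelium Pde3a was concentrated in cluster 21, led by the arterial genes Gja5 and Sox17, at 1058 and 997 CPM, against 41.7 to 299.6 CPM in the other 3 endothelial clusters. The order of Pde2a, a cyclic GMP-stimulated enzyme, was the opposite, with 7.18 and 13.6 CPM in cluster 21 and 88.9 to 193 CPM in the other 3. Pde9a, which breaks down cyclic GMP, was concentrated in the Vwf-led endothelial cluster 20 at 99.2 and 102 CPM, with 2.87 to 16.8 CPM in the other 3.

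Pde8b, a high-affinity cyclic AMP phosphodiesterase (chr13:95024454-95250336, minus strand), was highest in pericyte-like nuclei at 265 CPM (214 to 325) and 150 CPM (109 to 201), 9.50 and 2.58 times the second class. Pde5a, the cyclic GMP enzyme that sildenafil blocks, was also high in mural nuclei: 335 and 146 CPM in smooth muscle-like and 167 and 153 CPM in pericyte-like nuclei, against 7.43 and 7.68 CPM in adipocyte-like nuclei. Pde7a was highest in natural killer or innate lymphoid-like nuclei at 1028 and 1090 CPM, and so was Pde11a, at 83.9 and 92.4 CPM. That class was named through Il1rl1, Gata3 and Il7r alone. Ncr1, another marker of its set, was among the leading genes of T cell-like cluster 10. Pde7b stood at 729 and 736 CPM in lymphatic endothelial-like nuclei and at 744 and 662 CPM in the innate lymphoid-like class. Pde10a (462 and 369 CPM) and Pde4d (1499 and 1327 CPM) were highest in mesothelial-like nuclei. Pde8a in fibroblast-like nuclei was highest in cluster 9, at 408 and 431 CPM against 109 to 225 CPM in the other 2. Pde6h overlaps the leukocyte gene Arhgdib on the opposite strand, and its counts are uncertain because whether reads were assigned by strand is unknown here.

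Of the protein kinase A subunits, only Prkar2b led a class among the 4 regulatory and 2 catalytic genes. Prkar2b (chr12:31958476-32061296, minus strand), the type II regulatory subunit typical of fat and brain, stood at 1496 CPM (1486 to 1506) and 1209 CPM (1198 to 1220) in adipocyte-like nuclei, 2.44 and 2.01 times the second class. Prkar1b was highest in pericyte-like nuclei (80.7 and 47.6 CPM, against 2.43 and 2.60 CPM in adipocyte-like nuclei), and the catalytic gene Prkacb in smooth muscle-like nuclei (263 and 195 CPM). Among the anchors, Akap6 (chr12:52699383-53155599, plus strand), which holds the kinase at the nuclear envelope of muscle cells, was highest in smooth muscle-like nuclei at 1054 CPM (965 to 1148) and 608 CPM (495 to 740), 15.9 and 8.52 times the pericyte-like level. Akap12 was highest in lymphatic endothelial-like nuclei (241 and 253 CPM) and stood at 239 and 229 CPM in fibroblast-like nuclei, against 29.1 and 22.6 CPM in adipocyte-like nuclei. Akap13, an anchor that also activates the GTPase RhoA, was highest in fibroblast-like nuclei (1424 and 1374 CPM), Akap10 in macrophage-like nuclei (373 and 362 CPM), Akap1, which anchors the kinase at the outer mitochondrial membrane, in pancreatic acinar-like nuclei (123 and 107 CPM), and Akap7 in adipocyte-like nuclei (626 and 546 CPM).

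**Figure D1:**
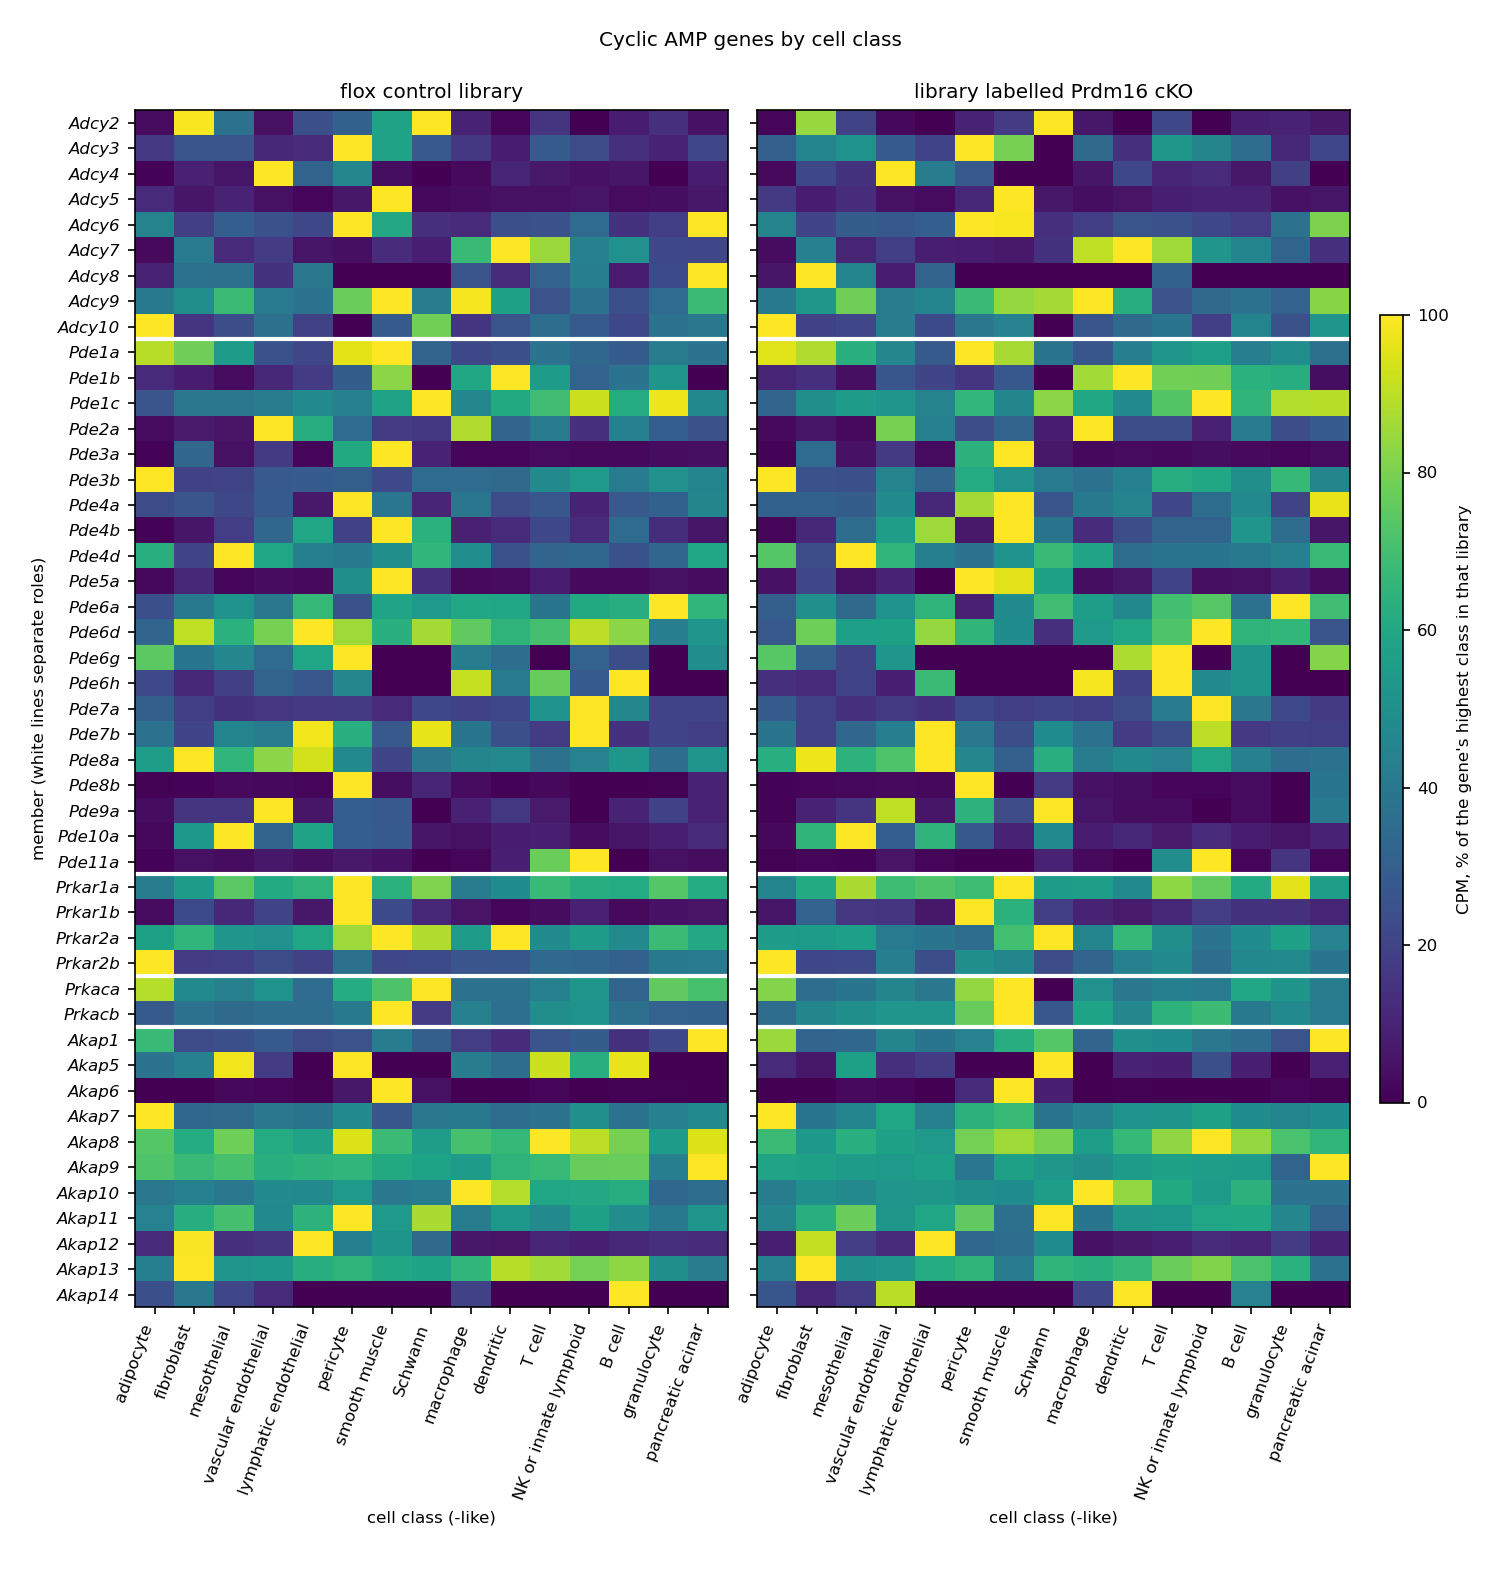
Level of the 47 placed genes in 15 cell classes of 20 or more nuclei per library; rows are genes grouped by role, columns are classes, and colour gives CPM as a percent of the gene's own highest class in that library. Adcy5, Pde3a and Akap6 peak in smooth muscle-like nuclei and Pde3b, Prkar2b, Akap7 and Adcy10 in adipocyte-like nuclei of both libraries; rows with few UMIs, such as Akap14, differ between the panels.

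Within adipocyte-like nuclei, 2 cyclases ran in opposite directions. The nuclei fell into 4 clusters that differ in fatty acid synthesis genes. Cluster 0, led by Nnat, Tshr and Folh1, made up 58.4% of the class in the control and 33.2% in the library labelled cKO, and had the lowest summed level of the lipogenic genes (6283 and 7927 CPM). Cluster 7, set apart from the other 3 by mitochondrial transcripts, held 13.6% and 9.31%. Cluster 1, with Acaca and Acss2, held 22.0% and 33.0%, and cluster 5, led by Elovl6 and Acly, held 6.08% and 24.5% and had the highest lipogenic level (37427 and 36611 CPM). Cluster 0 was the largest in both libraries, and clusters 1 and 5 had larger shares in the library labelled cKO than in the control. Of the 53 genes, 38 had at least 50 adipocyte UMIs in each library, and 3 stood at least 1.5 times above or below the other adipocyte-like nuclei in 1 cluster in both libraries, against 8.74% of all genes so measured: Adcy10, Adcy5 and Pde1b.

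Adcy10 (chr1:165485183-165576774, plus strand) was highest in the lipogenic cluster 5, at 135 CPM (124 to 147) in the control and 138 CPM (131 to 146) in the library labelled cKO. It stood at 56.5 and 60.8 CPM in cluster 1, and cluster 7 had 23.6 and 52.0 CPM. Cluster 0 was lowest, at 18.1 and 26.4 CPM. The level in cluster 5 was 7.48 times that in cluster 0 in the control and 5.25 times in the other library, and the intervals of these 2 clusters did not overlap in either. Adcy10 overlaps the antisense gene Gm38325.

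Adcy5, the cyclase that the inhibitory G protein and calcium restrain, had the reverse order. It was highest in cluster 0, at 134 CPM (130 to 138) and 228 CPM (219 to 236), and lowest in cluster 5, at 43.2 CPM (36.8 to 50.3) and 23.8 CPM (20.9 to 27.1), with 113 and 149 CPM in cluster 7 and 85.5 and 85.1 CPM in cluster 1. The ratio of cluster 0 to cluster 5 was 3.1 in the control and 9.55 in the library labelled cKO. The same orders held in the share of nuclei with a UMI after every nucleus was thinned to 1000 UMIs, which left out no adipocyte-like nucleus. Adcy10 was then seen in 1.35 and 3.05% of nuclei in cluster 0 and 11.8 and 12.4% in cluster 5, and Adcy5 in 11.7 and 17.2% in cluster 0 and 4.96 and 2.42% in cluster 5. In macrophage-like nuclei, with median depths of 4577 and 4319 UMIs where the adipocyte-like medians were 12222 and 11913, the thinned shares were 0.811 and 2.72% for Adcy10 and 3.25 and 2.54% for Adcy5. The share of Adcy5 in cluster 5 of the library labelled cKO is thus at the level of these macrophage-like nuclei. Without thinning, the shares over the whole classes were 24.7 and 40.8% of adipocyte-like against 2.64 and 7.61% of macrophage-like nuclei for Adcy10, and 51.4 and 42.7% against 13.4 and 12.3% for Adcy5.

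The proximal promoters of the 2 cyclases, and of the adipocyte-leading Prkar2b, are shown because these genes mark adipocyte-like nuclei or differ most between their clusters; they are the 250 bases before the RefSeq start on GRCm38.p6, in lower case with any E-box CACGTG, the site of lipogenic and clock factors, in capitals.
Adcy10, chr1:165484933-165485182, plus strand: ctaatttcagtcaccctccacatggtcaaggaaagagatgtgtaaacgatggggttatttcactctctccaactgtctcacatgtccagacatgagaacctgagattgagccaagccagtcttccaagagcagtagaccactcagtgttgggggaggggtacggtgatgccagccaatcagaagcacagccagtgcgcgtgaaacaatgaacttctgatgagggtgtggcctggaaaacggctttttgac
Adcy5, chr16:35154614-35154863, plus strand: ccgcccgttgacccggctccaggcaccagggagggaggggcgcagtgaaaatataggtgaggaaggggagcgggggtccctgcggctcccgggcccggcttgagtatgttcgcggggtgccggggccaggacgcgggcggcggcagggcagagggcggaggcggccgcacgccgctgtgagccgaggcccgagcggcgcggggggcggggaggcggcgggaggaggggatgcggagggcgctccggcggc
Prkar2b, chr12:32061278-32061527, minus strand: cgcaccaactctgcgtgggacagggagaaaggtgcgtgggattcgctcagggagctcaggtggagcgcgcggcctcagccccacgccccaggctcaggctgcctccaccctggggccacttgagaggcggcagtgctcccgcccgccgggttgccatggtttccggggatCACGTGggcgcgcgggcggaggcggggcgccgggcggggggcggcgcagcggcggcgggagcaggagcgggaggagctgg
Prkar1a, 28 bases around its cyclic AMP response element, chr11:109650890-109650917, plus strand, with the element in capitals: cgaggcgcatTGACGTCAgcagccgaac
Of the 53 genes, 43 had 85 RefSeq promoters in the table of 250 bases before to 50 after the start, and 10 had no entry. On either strand, the full cyclic AMP response element TGACGTCA was found in 2 of the 85, both of Prkar1a and both holding the same site, against 1.79% of all 32851 promoters. The half-site TGACG, which the full element contains, was in 17 of 85 (20%) against 20.8% of all. CACGTG was in 8 of 85 (9.41%) against 7.15%, and the sterol regulatory element TCACCCCAC was in 0 of 85 against 0.551%. Counted by gene, the half-site was in 15 of 43 against 23.0% of all genes, and CACGTG in 8 of 43 against 8.09%. The full element was in 1 of 43 against 2.03%. The 43 genes had 85 promoters, where all 27025 genes had 32851, so the number of promoters per gene was not alike. The Adcy10 and Adcy5 windows hold none of these 4 motifs.

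The other members varied more gently along the same clusters. Pde1b, a calcium-activated phosphodiesterase, was lowest in cluster 5, at 2.38 and 1.55 CPM, from only 9 and 15 UMIs. Pde3b was lower in cluster 5 than in cluster 0 by a log2 ratio of -0.52 (-0.55 to -0.48) in the control and -0.54 (-0.57 to -0.52) in the library labelled cKO. Prkar2b was lower by -0.60 and -0.46, Akap7 by -0.29 and -0.36, and Pde1a by -0.51 and -0.21. Pde4d, the main cyclic AMP-specific enzyme of many tissues, was higher in cluster 5, by 0.38 (0.33 to 0.42) and 0.70 (0.67 to 0.74), as were Pde8a, by 0.56 and 0.40, and Pde7a, by 0.23 and 0.18. Not every cyclic AMP-specific phosphodiesterase was higher. Pde4a was lower in cluster 5, by -0.46 (-0.88 to -0.06) and -0.28 (-0.55 to -0.004), and Pde7b was nearly level, at -0.01 and -0.07. Along the lipogenic axis Pde3b and Prkar2b were thus lower, and Pde4d, Pde8a and Pde7a higher, in the 2 libraries alike.

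**Figure D2:**
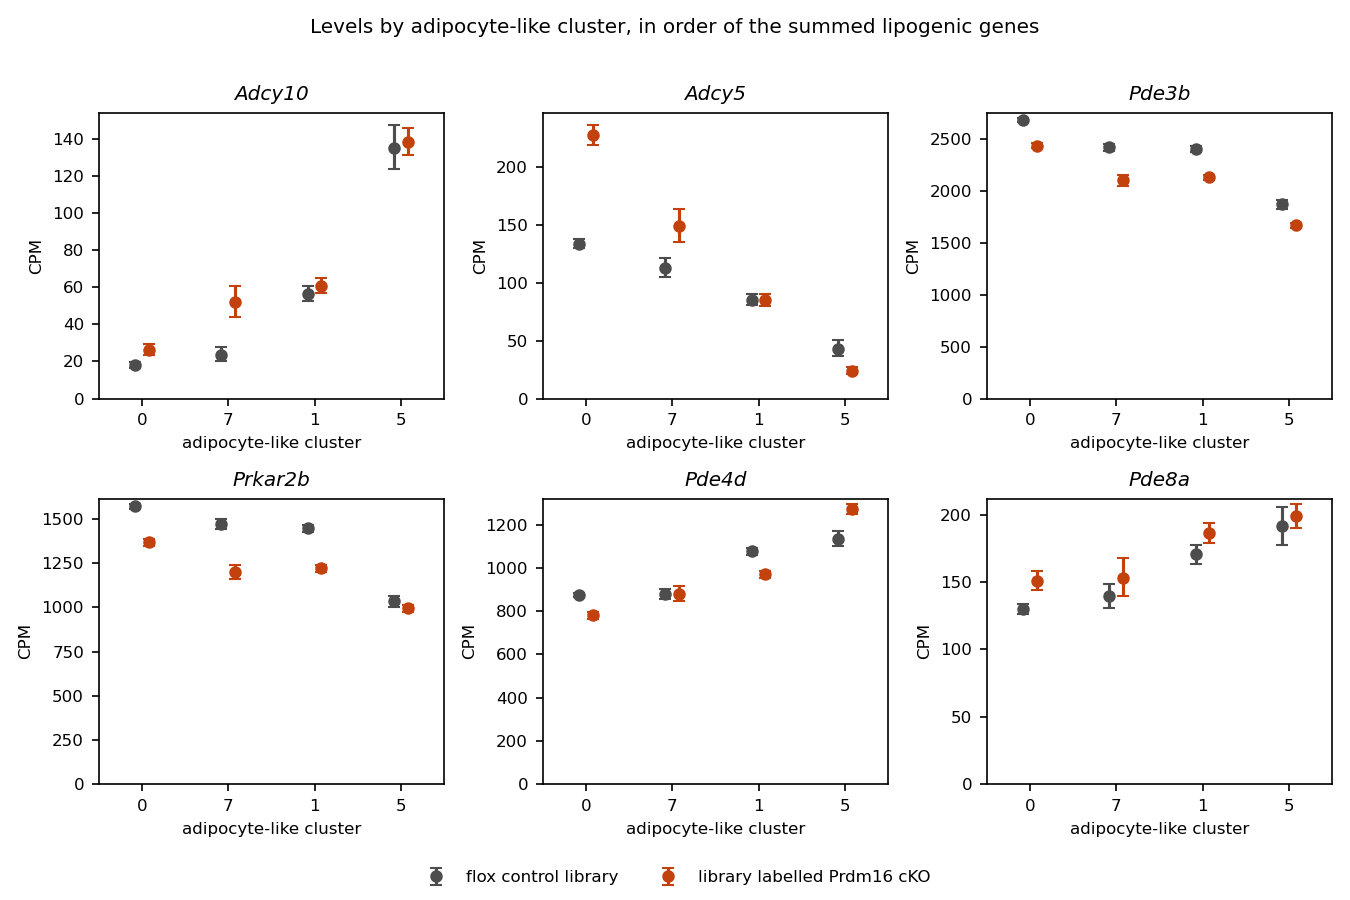
CPM of 6 genes in the 4 adipocyte-like clusters, ordered from the lowest (0) to the highest (5) summed lipogenic level, with points for each library and bars for 95% Poisson intervals. Adcy10 climbs from 18.1 and 26.4 CPM to 135 and 138 CPM, Adcy5 runs the other way, and Pde3b and Prkar2b are lowest in cluster 5.

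The 2 cyclases were also followed without clusters, by cutting the adipocyte-like nuclei of both libraries together into 5 bins of equal size, from bin 1, with the smallest share of UMIs from the lipogenic genes, to bin 5; the bins are ranges and not cell types, and 932 nuclei lay within 5% of a boundary. Bin 1 took in 28.9% of the class in the control and 6.70% in the other library, and bin 5 took in 11.8% and 32.4%. From bin 1 to bin 5, Adcy10 in the control stood at 13.9, 17.4, 24.2, 51.9 and 106 CPM. In the library labelled cKO it stood at 15.8, 25.6, 32, 60.1 and 129 CPM. The library labelled cKO was higher in each bin, by log2 ratios between 0.19 and 0.56, with an interval that held 0 in bin 1.

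Adcy5 in the control stood at 134, 134, 119, 98.4 and 52.3 CPM over the same bins. In the library labelled cKO it stood at 299, 245, 158, 87.1 and 24.7 CPM. The log2 ratio of the libraries went from 1.16 (1.04 to 1.27) in bin 1 through 0.87, 0.41 and -0.18 to -1.08 (-1.30 to -0.87) in bin 5. Adcy5 was therefore higher in the library labelled cKO where lipogenic genes were low and lower where they were high. The phosphodiesterase Pde1c showed no such slope, at 35.7 to 40.2 CPM in the control and 41.4 to 57.0 CPM in the other library.

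**Figure D3:**
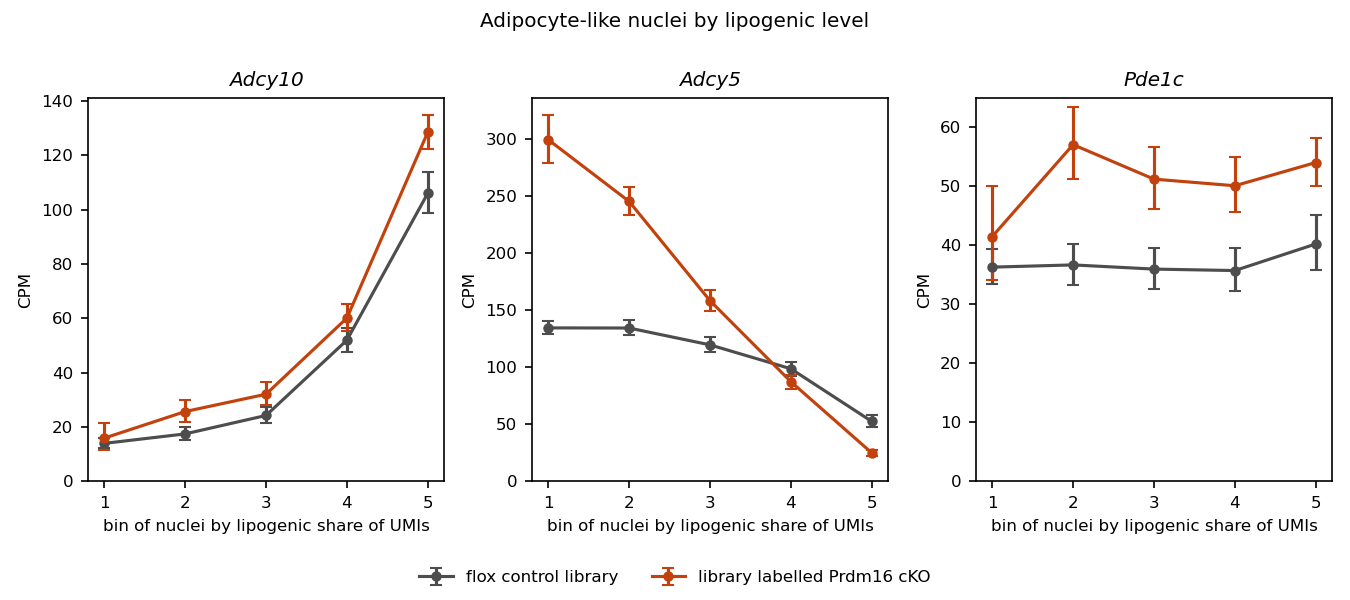
CPM of Adcy10, Adcy5 and Pde1c in 5 equal bins of the adipocyte-like nuclei, from the smallest (1) to the largest (5) lipogenic share of UMIs, by library, with 95% Poisson intervals. The Adcy5 lines cross between bins 3 and 4, from 134 against 299 CPM to 52.3 against 24.7 CPM.

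Between the libraries, most cyclic AMP genes of adipocyte-like nuclei differed by less than 1.5 times, and the abundant exception in the pooled class was Adcy10. Of the 53 genes 46 had at least 50 UMIs over both libraries; 20 were higher and 26 lower in the library labelled cKO, with a median log2 ratio of -0.06, against 0.03 over all 15316 genes measured so. At a difference of at least 1.5 times, 3 were higher (5.63% of all genes were) and 7 lower (3.26% of all genes were). By role, these were 4 of 9 cyclases, 5 of 21 phosphodiesterases, 1 of 10 anchors and none of the 6 kinase subunits. The intervals of 32 of the 46 left out 0, against 46.3% of all genes. That count depends on the UMIs of a gene as well as on its ratio. The 46 were not matched to all genes by UMIs, and Pde3b had 144626 and 80132. The 7 genes below the minimum were Adcy1, Akap3, Akap4, Akap14, Pde4c, Pde6b and Pde6c.

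Adcy10 went from 35.5 CPM (2030 UMIs) to 68.9 CPM (2618 UMIs), a log2 ratio of 0.96 (0.87 to 1.04). With the 4 clusters given the same shares in both libraries (their shares of all adipocyte-like nuclei of the 2 libraries together), the ratio was 0.26, and with the 5 lipogenic bins weighted likewise 0.30. With each library clustered on its own it was 0.29; there the Elovl6- and Acly-led cluster of the library labelled cKO (744 nuclei) held 1 adipocyte marker, stayed unnamed and was left out. The Elovl6- and Acly-led control cluster (1133 nuclei) was kept, and Adcy10 was among the leading genes of both clusters. The ratio of 0.29 therefore compares unlike sets of nuclei. Adcy10 was thus past 1.5 times in the pooled class and not with the same cluster or bin shares. For the single clusters 0, 1, 5 and 7 the ratios were 0.55, 0.11, 0.04 and 1.14. The summed lipogenic level of the 2 libraries was 6283 and 7927 CPM in cluster 0 and 9848 and 15787 CPM in cluster 7. It was 21066 and 20380 CPM in cluster 1 and 37427 and 36611 CPM in cluster 5. Clusters 0 and 7 were thus less alike in it between the libraries than clusters 1 and 5. In cluster 7 the thinned share of nuclei with Adcy10 was 3.75% in both libraries. Adcy5, at 114 and 120 CPM, had a pooled ratio of 0.07 (0.02 to 0.13), and with the same cluster shares 0.52. For clusters 0, 7, 1 and 5, in the order of their lipogenic level, the Adcy5 ratios were 0.76, 0.40, -0.01 and -0.86. Giving both libraries the same cluster shares thus lowered the ratio of Adcy10 and raised that of Adcy5.

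The other 9 genes past 1.5 times had at most 203 UMIs in a library. Adcy4 (33 and 36 UMIs, log2 ratio 0.71) and Pde8b (65 and 66 UMIs, 0.61) were higher. Pde9a (53 and 11 UMIs, -1.68), Adcy8 (49 and 11 UMIs, -1.57), Pde6h (79 and 24 UMIs, -1.13), Pde11a (55 and 19 UMIs, -0.94), Adcy2 (44 and 18 UMIs, -0.70), Akap6 (88 and 37 UMIs, -0.66) and Pde1b (203 and 88 UMIs, -0.62) were lower. The intervals of Adcy4 and Adcy2 held 0. With a minimum of 200 UMIs, Adcy10 and Pde1b alone of the 10 were measured and past 1.5 times. Adcy8, Pde9a and Pde11a were high in intestinal epithelial-like nuclei, at 213, 88.6 and 51.9 CPM in the control, and that class held 1.23% of control and 0.258% of cKO-labelled nuclei. In adipocyte-like nuclei the 7 intestinal markers summed to 15.6 and 8.34 CPM, with none at 0, and their part in these 3 differences was not tested.

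The genes best known in fat cells differed by less than 1.5 times. Pde3b had 2529 CPM against 2108 CPM in the library labelled cKO (log2 ratio -0.26, -0.28 to -0.25), with lower values in all 4 clusters (-0.20 to -0.14). Prkar2b had 1496 CPM against 1209 CPM (-0.31, -0.32 to -0.29), again with lower values in all 4 clusters (-0.30 to -0.06), as did the type I regulatory gene Prkar1a, at 43.9 and 35.8 CPM (-0.30, and -0.45 to -0.14 in clusters). Prkar2a, at 47.8 and 53.1 CPM (0.15), and the catalytic gene Prkaca, at 49.7 and 59.3 CPM (0.26), were higher in all 4, by 0.09 to 0.26 and 0.08 to 0.41. The intervals held 0 for Prkar2a in clusters 1, 5 and 7, for Prkaca in cluster 5 and for Prkar1a in cluster 0. Prkacb stood at 74.1 and 69.1 CPM (-0.10). Of the cyclases, Adcy3 stood at 22.2 and 18.7 CPM (-0.25) and Adcy6 at 59.6 and 58.0 CPM (-0.04, with an interval that held 0). Pde4d, at 939 and 979 CPM (0.06), was lower in clusters 0 and 1 (-0.16 and -0.15) and higher in cluster 5 (0.17). Pde4b, with 5.23 and 4.47 CPM, had an interval that held 0. The anchors stood at 83.2 and 91.1 CPM for Akap1 (0.13), 618 and 597 CPM for Akap13 (-0.05) and 29.1 and 22.6 CPM for Akap12 (-0.37).

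Pde1c, the phosphodiesterase activated by calcium and calmodulin, was higher by a similar amount in each adipocyte-like cluster. It stood at 36.7 and 52.1 CPM (log2 ratio 0.51, 0.42 to 0.60), with 0.38 to 0.58 in each of the 4 clusters and 0.50 with the same cluster shares in both libraries. It was also higher in 7 of the 8 other classes compared, by up to 0.66 in mesothelial-like nuclei, and lower in dendritic-like nuclei (-0.15). The unnamed cluster of low depth had 152 CPM of Pde1c in the control and 291 CPM in the other library, and 45.3 and 76.0 CPM of Pde6a, whose adipocyte-like ratio was 0.45. That cluster's larger share in the library labelled cKO moves with both genes, and its part in them was not tested.

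**Figure D4:**
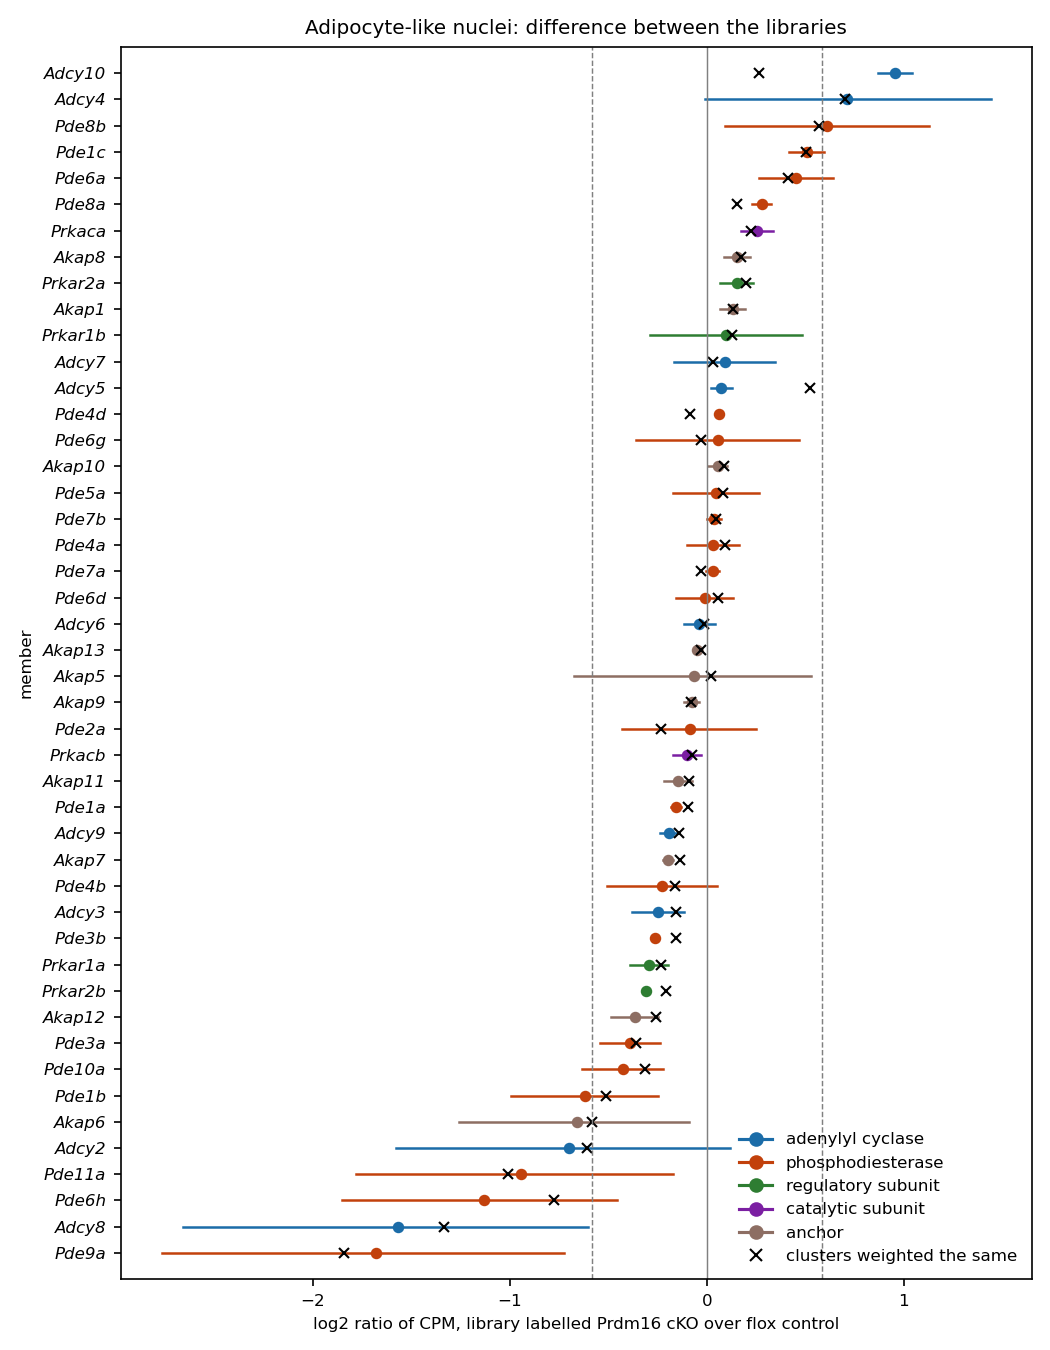
log2 ratio of CPM between the library labelled Prdm16 cKO and the flox control in adipocyte-like nuclei for the 46 genes measured, with 95% counting intervals, coloured by role; crosses give the ratio with the 4 clusters at the same shares in both libraries and dashed lines mark 1.5 times. Adcy10 moves from 0.96 to 0.26 and Adcy5 from 0.07 to 0.52 at the same shares, while the genes at the lower end have wide intervals.

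In the other classes, 29 differences past 1.5 times were counted over 8 classes, and each share is given beside that of all genes. There were 4 of 36 genes in macrophage-like nuclei (8% of all genes), 2 of 37 in fibroblast-like (7.28%), 4 of 38 in mesothelial-like (8.01%), 7 of 36 in T cell-like (12.5%) and 4 of 32 in B cell-like nuclei (14.4%). There were 2 of 31 in dendritic-like (13.9%), 6 of 38 in vascular endothelial-like (14.2%) and 0 of 26 in lymphatic endothelial-like nuclei (9.71%). Adcy10 was among them, and higher in the library labelled cKO, in 6 of the 8 classes. After the adipocyte profile was subtracted at the level of the adipocyte markers, Adcy10 left no ratio in any of the 8. The intervals of 4 of the 29 held 0: Pde4a in T cell-like (44 and 19 UMIs, -0.71) and dendritic-like nuclei (38 and 34 UMIs, 0.60), Adcy4 in fibroblast-like nuclei (37 and 42 UMIs, 0.60) and Pde2a in mesothelial-like nuclei (42 and 10 UMIs, -1.0).

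Vascular endothelial-like nuclei had Adcy4 at 55.8 and 36.3 CPM (222 and 92 UMIs, log2 ratio -0.62, -0.99 to -0.26; -0.24 after the adipocyte profile was subtracted), Prkar1b at 16.6 and 7.11 CPM (66 and 18 UMIs, -1.22; -1.02 after it) and Akap6 at 15.1 and 8.29 CPM (-0.86; -0.50 after it). Adcy4 was lower in each of the 4 endothelial clusters, from 76.9 against 67.9 CPM in the arterial cluster 21 to 31.1 against 15.8 CPM in cluster 19. Prkar1b came mainly from cluster 19, at 47.1 and 14.3 CPM (56 and 10 UMIs). Pde1a, at 170 and 263 CPM (0.64), and Prkar2b, at 342 and 516 CPM (0.59), were higher, while the adipocyte markers in this class went from 25.0 to 43.3% of their adipocyte level. Prkar2b left no ratio once the adipocyte profile was subtracted, while Pde1a was still measured and past 1.5 times.

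In immune classes, Akap1 was higher in macrophage-like (22.6 and 35.0 CPM, 0.63), T cell-like (32.5 and 52.0 CPM, 0.68), dendritic-like (15.6 and 53.7 CPM, 1.78) and, from 26 and 49 UMIs, B cell-like nuclei (1.08). Prkaca was higher in macrophage-like nuclei (21.0 and 36.8 CPM, 0.81) and in the B cell-like class (26 and 55 UMIs, 1.25). Adcy6 was higher in macrophage-like nuclei (0.61), and Adcy5 in the B cell-like class (27.7 and 67.8 CPM, 1.29). The adipocyte markers were also higher in each of these 4 classes of the library labelled cKO. After the adipocyte profile was subtracted, Prkaca in macrophage-like nuclei was the 1 of these differences still measured and past 1.5 times (1.19), and each of the others was left with too few UMIs to be measured. T cell-like nuclei had lower Pde3a (61.9 and 30.9 CPM, -1.0), Pde2a (46.9 and 27.9 CPM, -0.75) and Pde10a (41.1 and 26.4 CPM, -0.64) and higher Pde6a (0.98); after subtraction Pde3a stood at -0.87, Pde2a at -0.45 and Pde10a at -0.38. In mesothelial-like nuclei Pde1c was higher (55.3 and 87.1 CPM, 0.66) and Pde8b lower (43 and 10 UMIs, -1.04), and after subtraction these ratios were 0.71 and -1.11.

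Around these enzymes, 79 other genes of the pathway were listed, and 61 were measured in adipocyte-like nuclei: 37 were higher and 24 lower in the library labelled cKO (median log2 ratio 0.04), with 6 higher and 1 lower by at least 1.5 times, where 5.63% of all genes were higher and 3.26% lower by that much. Among receptors coupled to the stimulatory G protein 4 of 11 were higher by that much: Adrb1, a beta-adrenergic receptor, at 22.6 and 35.2 CPM (0.64, and 0.47 to 0.79 in the 4 clusters), Pth1r at 17.4 and 29.1 CPM (0.75, but 0.03 in cluster 5), and, from few UMIs, Vipr2 (26 and 46) and Mc5r (24 and 34). Adrb3, the main adrenergic receptor of rodent fat cells, stood at 678 and 697 CPM (0.04), and Tshr, the thyrotropin receptor, at 1225 and 866 CPM (-0.50). None of the 5 receptors coupled to the inhibitory G protein passed 1.5 times, from Hcar2 (-0.47) to Ptger3 (0.10). Of the 6 G protein genes, Gnai1, an inhibitory subunit, stood at 562 and 378 CPM (-0.57), Gnas at 205 and 219 CPM (0.10) and Gnai2 at 19.5 and 23.1 CPM (0.25).

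Rapgef3, the cyclic AMP sensor Epac1 that acts beside protein kinase A, was the 1 gene lower by that much, at 19.0 and 9.76 CPM (-0.96). For clusters 0, 7, 1 and 5 its ratios were -0.61, -1.16, 0.01 and 0.09. Rapgef3 and Gnai1 were highest in cluster 0 and lowest in cluster 5, as Adcy5 was: Rapgef3 stood at 24.9 and 16.4 CPM against 3.97 and 4.23 CPM, and Gnai1 at 657 and 513 CPM against 291 and 255 CPM. Pth1r and the cyclic AMP exporter Abcc4 were highest in cluster 5, as Adcy10 was, at 44.2 and 45.1 CPM and at 54.3 and 53.7 CPM. These 4 genes, unlike the 53, were not left out of the clustering. The related sensor Rapgef4 stood at 14.5 and 19.9 CPM (0.46). Of the 4 inhibitors of protein kinase A and relatives, the 8 CREB family genes and coactivators and the 8 CREB targets, none passed 1.5 times. The inhibitors and relatives ran from Pkia (-0.21) to Prkx (0.04), the CREB family from Crtc1 (-0.18) to Crtc2 (0.14), and the targets from Nr4a3 (-0.41) to Dio2 (0.47), with Ppargc1a at 0.22. The anchors and relatives outside the naming rule had Map2 (1.33) and Sphkap (1.04) higher of 14, from 75 and 65 control UMIs, and Ezr lowest (-0.38).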

How the data were processed

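Single-nucleus RNA sequencing gave 2 libraries. The deposited matrices hold counts of UMIs (unnormalised, per gene and barcode), and the submitters' processing notes name Cell Ranger 6.1.2 and mm10. The annotation, the use of introns and strand, and the barcode filter were not given in the sources used here. The total was 108987031 UMIs in 12060 control barcodes and 70895490 UMIs in 8086 cKO-labelled barcodes, and 28 barcode sequences were shared. Barcodes over 5% mitochondrial UMIs were removed (449 and 217), as were the 1078 and 495 with the highest Scrublet scores, at 0.8% per 1000 nuclei, since its own threshold marked under 0.01%.

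Kept nuclei were clustered with scanpy 1.11.5 and leidenalg 0.10.2 (2000 variable genes, 30 components, 20 neighbours, resolution 1.0) with the 53 genes left out, giving 29 clusters. A cluster was named "-like" with at least 3 markers of a set. A cluster with no own marker among its 10 leading genes and a median depth under 50% of its library's stayed unnamed, a threshold set after seeing the data. Differences from other accounts may come from these rebuilt names. Summed counts of each class in each library were scaled to CPM, with exact Poisson intervals; ratios have exact conditional binomial intervals and shares Clopper-Pearson intervals. These cover counting error only. Where an adipocyte profile was subtracted from another class, it was scaled by the summed adipocyte markers of that class in the same library, and ratios used the UMIs left. A gene was measured in a class with at least 50 UMIs over both libraries, and classes were compared with at least 100 nuclei in each. Ratios were tested on simulated data. Positions come from GENCODE M21 on GRCm38, and promoters from RefSeq on GRCm38.p6.

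Named were genes leading a class or cluster, those past 1.5 times (in other classes, with an interval that left out 0), the 5 highest and 5 lowest ratios, and preset genes of known role in fat; Pde4a, Adcy7, Adcy9, Pde2a, Pde5a, Pde7a, Pde7b, Akap7 and Akap10, the values of single endothelial and fibroblast clusters, and the lipogenic bins were added after values were seen. The members and lists were chosen with earlier results of these data known. Other scalings (edgeR 4.0.16 TMM), thinning, minimums, clusterings and free RNA corrections were tried.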

Additional observations from a re-analysis of the deposited data

Results flagged for a closer look

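The log2 ratio of the libraries for Adcy5 had opposite signs in 2 adipocyte-like clusters. It was 0.76 in cluster 0, where lipogenic genes were lowest, and -0.86 in cluster 5, where they were highest. Both were past 1.5 times with intervals that left out 0. With 1 library per genotype the difference between the clusters was not tested.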

How the results depend on the processing

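In adipocyte-like nuclei, 10 of the 53 genes were past 1.5 times. The count was 2 after thinning to 1000 UMIs, 2 at a minimum of 200 UMIs and 3 after 10% free RNA was subtracted. Fewer genes were measured in each, at 31, 37 and 34 against 46. The 2 after thinning were Adcy10 and Pde1c, and Pde1c is not among the 10. For single clusters the counts were 4 (cluster 0), 3 (cluster 1), 1 (cluster 5) and 2 (cluster 7), again with fewer genes measured. Of these genes, Pde8b, Pde1b and Adcy10 are among the 10, for clusters 0, 1 and 7 in that order. The rest are not. Pde2a (-0.63) and Pde4b (-0.60) were lower in cluster 0, and Pde6a (0.62) was higher in cluster 1. Pde3a was lower in both clusters 1 and 7 (-0.72 and -0.77), and Adcy5 passed in clusters 0 and 5. The intervals of Pde2a, Pde4b, Pde6a and Pde3a left out 0. The count was 6 with the same cluster shares in both libraries and 7 with the same lipogenic bin shares (chosen after seeing the data). It was 7 when the libraries were clustered separately, and 14 with no minimum. Adcy10 was not past 1.5 times in the first 3 of these, nor in clusters 0, 1 and 5. Separate clustering left out the Elovl6- and Acly-led cluster of the library labelled cKO alone. With the low-depth cluster counted as adipocyte-like, chosen after seeing the data, the count was 8. It gained Pde1c and Pde6a and lost Adcy2, Akap6, Pde11a and Pde1b. The median ratio of -0.06 was 0.054 in cluster 5, 0.03 in cluster 1 and 0.01 after free RNA was subtracted, and -0.10 with TMM scaling. The 5 class-leading genes became 9 after the adipocyte profile was subtracted, 9 at 1.5 times and 2 at 3 times the second class. With every nucleus thinned to 1000 UMIs, 4 genes led a class, with Pde8b and Prkar2b lost and Pde7a gained. The 3 genes varying by cluster became 2 (Adcy10 and Adcy5) at 2 times or with the 53 genes kept in the clustering. After thinning to 1000 UMIs they were Adcy10, Adcy5 and Pde4a. Differences past 1.5 times in other classes went from 29 to 15 after thinning and 33 after subtraction. None of the 10 genes changed sign in a setting where it was measured, but several had too few UMIs in single clusters to be measured. Adcy5, not among the 10, had 0.76 in cluster 0 and -0.86 in cluster 5. Except where given, the cause of these shifts was not tested. Each arm is 1 library, so no library could be left out. No paired analysis was possible because each genotype has 1 library and the groups share only 1 replicate number.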
